A study of Mus musculus with 14 samples.

Results

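The 76 genes described here encode mitochondrial ribosomal proteins. They are the rows of both deposited tables whose symbol is Mrpl or Mrps followed by a digit, and they are 76 of the 9474 genes in each table. GENCODE M21 annotates 78 protein-coding mouse genes with such symbols. The other 2 are Mrpl23, which is not analysed here, and Mrpl58, which the tables list under its older symbol Ict1 and which is counted below among the proteins with other symbols. RNA sequencing gave 14 mouse libraries (strain C57BL/6J) in 2 experiments, which asked how macrophages respond to interleukin 4 (IL4), a cytokine of type 2 immunity. In culture, monocytes purified from bone marrow were grown for 7 days with the macrophage growth factor CSF1, alone in the 4 control libraries and with 20 ng/mL murine IL4 in the 4 IL4 libraries. CSF1 stood at 25 ng/mL by the growth protocol, whereas the design text has 20 ng/mL. In marrow, F4/80+ cells were sorted 12 days after mice had been given acute myeloid leukemia (AML) cells. These leukemia cells carried an empty vector in the 3 control libraries and an IL4 cDNA in the 3 IL4 libraries, so both marrow groups came from leukemic mice. Whether the libraries of a group stem from different cultures or mice is not said in the labels. The p-values hence measure only how far these samples scatter, and that scatter could be technical.

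Mitochondria hold their own ribosomes, which translate the few proteins encoded by mitochondrial DNA, all of them subunits of the respiratory chain and ATP synthase. The RNAs of this ribosome come from mitochondrial DNA, whereas every one of its proteins is encoded in the nucleus, made in the cytosol and imported. Part of the proteins have counterparts in bacterial ribosomes and the others are specific to mitochondria. In macrophages, IL4 acts through the transcription factor STAT6 and induces a state known for a high use of oxidative metabolism.

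Of the 76 members, 49 belong to the large subunit (29 of bacterial type and 20 specific to mitochondria) and 26 to the small subunit (16 of bacterial type and 10 specific to mitochondria). Mrps36, the last, is no longer counted as a ribosomal protein and is known as a subunit of alpha-ketoglutarate dehydrogenase. Mrps30 and Mrps18a encode large-subunit proteins in spite of their symbols.

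The sequences upstream of 5 members are shown as examples picked by hand with the results known. Mrpl28 and Mrpl37 fell in both experiments, and Mrpl3 fell in culture. After the centring described below, the falls of Mrpl37 in marrow (limma adjusted p = 0.0578) and of Mrpl3 in culture (limma adjusted p = 0.144) did not pass. Mrpl36 was the only member that rose in culture on the scale of the deposited values, a call kept under 8 of 16 alternative fits. Mrps6 had the largest rise in marrow. Mrpl49 and Mrpl19, whose falls in culture also passed after centring, are not shown. Each is the stretch of 250 bases before the gene's RefSeq start (mouse build GRCm38.p6), written 5′ to 3′ on the gene's strand. Mrpl28 lies on the plus strand (chr17:26123253-26123502), Mrpl37 on the minus strand (chr4:107066867-107067116), and Mrpl3 (chr9:105053018-105053267), Mrpl36 (chr13:73330759-73331008) and Mrps6 (chr16:92058086-92058335) on the plus strand. Capitals mark matches to the motifs listed after the sequences.
Mrpl28: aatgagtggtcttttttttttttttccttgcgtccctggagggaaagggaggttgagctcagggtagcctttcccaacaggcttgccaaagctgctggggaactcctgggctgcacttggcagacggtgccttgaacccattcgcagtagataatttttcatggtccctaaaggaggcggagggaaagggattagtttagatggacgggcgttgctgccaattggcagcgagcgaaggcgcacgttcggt
Mrpl37: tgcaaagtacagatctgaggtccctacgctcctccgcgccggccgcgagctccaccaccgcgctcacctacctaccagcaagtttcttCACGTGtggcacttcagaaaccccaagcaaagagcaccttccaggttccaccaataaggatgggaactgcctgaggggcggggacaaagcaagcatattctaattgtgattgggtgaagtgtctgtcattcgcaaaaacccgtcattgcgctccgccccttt
Mrpl3: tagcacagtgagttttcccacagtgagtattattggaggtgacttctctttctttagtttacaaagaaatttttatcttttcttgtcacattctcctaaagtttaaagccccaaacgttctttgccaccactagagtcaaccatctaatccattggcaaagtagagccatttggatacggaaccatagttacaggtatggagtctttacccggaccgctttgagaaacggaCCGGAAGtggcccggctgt
Mrpl36: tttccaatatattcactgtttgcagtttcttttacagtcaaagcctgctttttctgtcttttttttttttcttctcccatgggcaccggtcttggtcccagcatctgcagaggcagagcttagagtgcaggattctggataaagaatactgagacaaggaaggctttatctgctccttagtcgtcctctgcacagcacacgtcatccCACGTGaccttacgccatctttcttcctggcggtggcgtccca
Mrps6: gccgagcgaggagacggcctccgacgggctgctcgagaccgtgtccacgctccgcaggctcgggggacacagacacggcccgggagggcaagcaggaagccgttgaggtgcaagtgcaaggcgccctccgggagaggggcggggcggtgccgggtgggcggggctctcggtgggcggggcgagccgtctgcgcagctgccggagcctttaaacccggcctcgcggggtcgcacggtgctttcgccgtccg

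RefSeq promoters were matched by symbol for 67 of the 76 members. Both strands were searched for 5 motifs, of which none contains another. The ETS motif CCGGAAG, the core bound by GABP, a regulator of nuclear genes for mitochondrial proteins, occurred in 17 of the 67 member promoters (25.4%), in 18.1% of the 7322 measured genes with a promoter and in 7.83% of all 27025 promoters. In Mrpl3 it began 19 bases before the start. The E-box CACGTG, a site type of the MYC family, occurred in 5 member promoters (7.46%), against 10.6% of measured genes. It began 162 bases before the RefSeq start of Mrpl37 and 43 bases before that of Mrpl36. The Mrpl36 window lies inside the span that GENCODE gives for this gene. The STAT6 palindrome was found in 3 member promoters (4.48%), those of Mrpl44, Mrpl53 and Mrps17, and in 5.57% of measured genes. The NRF1 motif stood in 3 (4.48%, against 2.17% of measured genes). The YY1 motif stood in 1 (1.49%, against 0.574%). Mrpl28 and Mrps6 held no match to any of the 5 in the window shown.

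The deposited values are log2 values from which whole reads could be recovered. Recovered reads totalled 506304 to 827408 per library, and a member had 0 to 93 reads in a library, with a median of 17.5. Of all genes 29.7% had fewer mean reads than the median member, so the members lay in the lower part of the measured range. The spread of member reads within a group was near counting error in culture IL4 libraries and above it in the other groups. The mean chi-square per degree of freedom over the 76 members was 1.23 in culture controls and 1.04 in culture IL4 libraries. In marrow it was 1.48 in controls and 1.55 in IL4 libraries. The medians were 0.85 to 1.01, and with so few libraries a median lies below the mean under counting error alone. The largest value in each group was that of Mrpl33 in marrow controls (60 reads in replicate 2 against 22 and 26, chi-square per degree of freedom 12.9), Mrps2 in marrow IL4 libraries (7, 12 and 40 reads, 8.15), Mrpl51 in culture controls (4.46) and Mrpl10 in culture IL4 libraries (3.1). The standard error of a member's log2 fold change had a median of 0.25 in culture and 0.30 in marrow. The values hold a constant per gene that had no relation to exon length (Pearson r 0.02 across 9031 genes), so levels were not compared between genes.

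The deposited values are relative to each library's total, and this scale matters for the culture experiment. There all 9474 genes had a median log2 fold change of -0.36, and the 50 genes with most reads took 24.45% to 26.59% of recovered reads in IL4 libraries against 12.45% to 17.94% in controls. Fold changes are therefore also given after centring, in which the median over all genes was subtracted from the values of each library. Cell division genes also moved with IL4: 10 of 12 fell in culture (8 after centring) and 11 of 12 in marrow. Of all genes 32.6% fell in culture (12.7% after centring) and 11.5% in marrow. Pcna, of the same list, rose in culture after centring (0.84, limma adjusted p = 0.015), with 0.48 as deposited (adjusted p = 0.0747). The replicate 4 libraries of culture stood apart within their groups. Summed over the 12 cell division genes, the reads per 1000000 recovered reads (CPM) were 897 to 2560 in culture controls, lowest in replicate 4. With IL4 in culture they were 493 to 853, highest in replicate 4. In marrow they were 5330 to 6150 in controls and 2330 to 2790 in IL4 libraries. The libraries labelled as sorted marrow macrophages held little of the macrophage markers and much of the neutrophil genes. Emr1, the gene of F4/80, had 28 to 126 reads in marrow libraries and 745 to 2415 in culture. The summed CPM of 8 macrophage markers was 3540 to 4310 in marrow controls and 1020 to 1420 in marrow IL4 libraries, against 5470 to 12700 in culture. The neutrophil genes S100a8, S100a9 and Ngp together had a CPM of 61300 to 69400 in marrow controls and 44700 to 55300 in marrow IL4 libraries, against at most 58.1 in culture. Markers of other cells also moved with IL4 in marrow. Of 2 measured eosinophil markers Prg2 rose (log2 fold change 1.22, limma adjusted p = 0.00344), and their summed CPM was 69.5 to 81.8 in controls and 150 to 237 with IL4. All 3 measured B cell markers fell (Blnk by 2.84, Cd79b by 1.47 and Cd22 by 1.13 on the log2 scale), with sums of 163 to 184 and 47.3 to 84.9 CPM. Of 3 monocyte markers Ccr2 and F13a1 fell by 3.92 and 4.27 on the log2 scale, whereas Chil3, which IL4 is known to induce in macrophages, rose (2.95). Cd34, the 1 progenitor marker measured, had 0.23 in marrow (adjusted p = 0.738) and fell in culture (-3.68, adjusted p = 0.000459). None of the T, NK and erythroid markers was measured (0 of 6 in each list). The part of the cell mixture and of cell division in the results below was not tested. In such bulk samples fewer cells of a type and less RNA per cell cannot be told apart.

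In culture, IL4 was accompanied by lower values of 15 members and a higher value of 1, and the other 60 did not pass the test (limma, adjusted p below 0.05 over all genes). Of all genes 40.5% passed, 32.6% downwards and 7.96% upwards. The median log2 fold change of the members was -0.36, equal to that of all genes (0.779-fold). Values of the IL4 and control libraries did not overlap for 16 members, or 14 lower and 2 higher, against 37.7% of all genes. After centring, 4 members passed upwards and 4 downwards and the members' median was 0.00, with 27.1% of all genes called, 14.4% up and 12.7% down. Of the members called on the deposited scale, 5 were also called after centring: Mrpl37, Mrpl28, Mrpl49 and Mrpl19 lower and Mrpl36 higher.

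**Figure D1:**
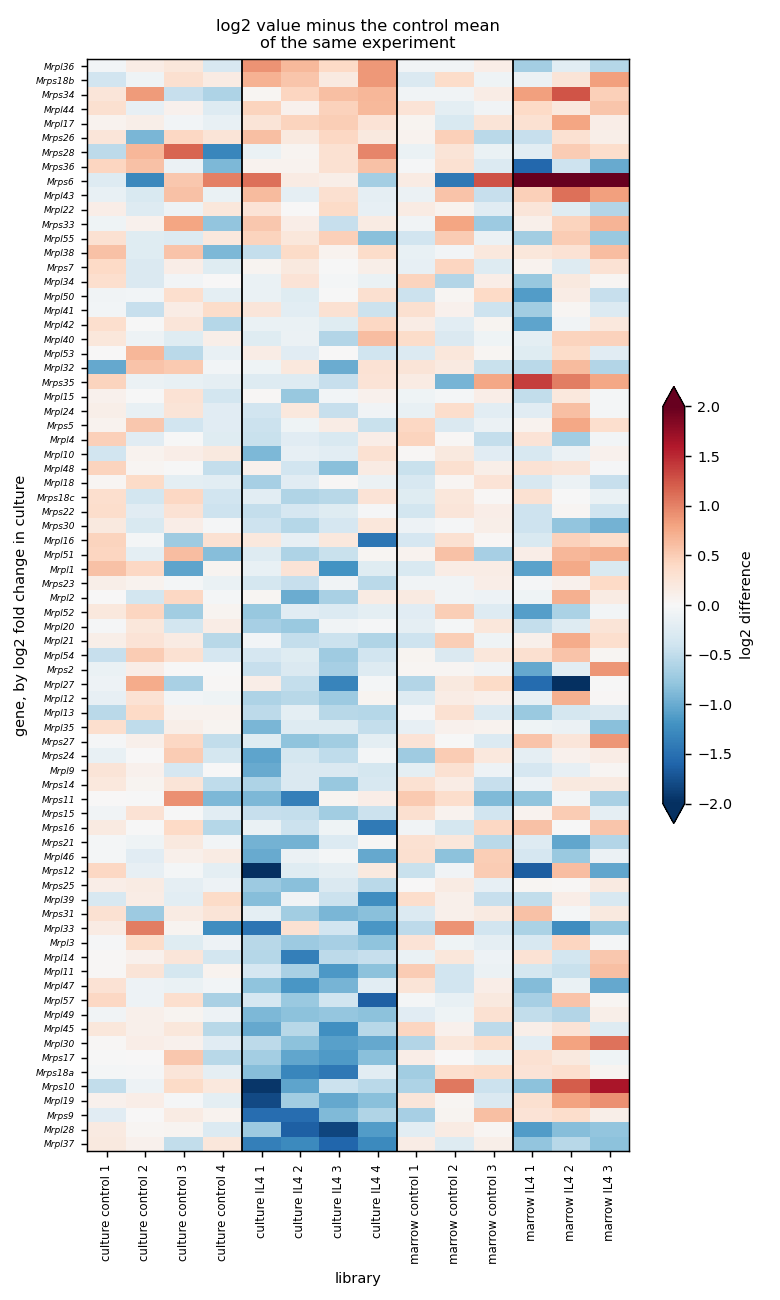
Difference between the deposited log2 value of each of the 76 members in each of the 14 libraries and the mean of the control libraries of the same experiment (colour, limited to -2 to 2), with genes ordered by their log2 fold change in culture. The culture IL4 columns are mostly blue, with 61 of 76 members below 0 on average (80.3%, against 74.7% of all genes). In marrow 37 of 76 were below 0 (48.7%, against 54.8% of all genes).

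Mrpl37, a large-subunit protein specific to mitochondria, had the largest fall in culture. Its gene lies at chr4:107055874-107066868, minus strand (GENCODE M21, build GRCm38, which is mm10, as for the genes below). Its deposited log2 values were 4.92, 4.81, 4.24 and 4.95 in control libraries 1 to 4 and 3.37, 3.46, 3.14 and 3.45 in IL4 libraries 1 to 4. All IL4 libraries lay below all controls. The log2 fold change was -1.37 ± 0.20 (SE; 2.59-fold lower; limma adjusted p = 0.000527), and -1.01 after centring (adjusted p = 0.00492). Recovered reads were 20 to 46 in controls and 10 to 15 with IL4.

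Mrpl28, a large-subunit protein of bacterial type (chr17:26123500-26126613, plus strand), followed closely. Its log2 values were 5.34, 5.20, 5.21 and 4.89 in controls and 4.43, 3.52, 3.32 and 4.05 with IL4. The groups did not overlap, and the IL4 libraries were more spread than the controls. The change amounted to -1.33 ± 0.24 (SE; 2.51-fold lower; limma adjusted p = 0.00212), and -0.96 after centring (adjusted p = 0.0125).

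Mrpl49, specific to mitochondria and part of the large subunit (chr19:6053622-6057785, minus strand), had the tightest replicates among the members named. Its log2 values were 5.43, 5.60, 5.55 and 5.40 in controls and 4.59, 4.67, 4.72 and 4.68 with IL4. Here too every IL4 library was below every control. This gave a log2 fold change of -0.83 ± 0.12 (SE; limma adjusted p = 0.000677), and -0.47 after centring (adjusted p = 0.0135).

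Mrpl19, of bacterial type and in the large subunit (chr6:81957851-81965958, minus strand), had log2 values of 4.65, 4.71, 4.54 and 4.38 in controls and 2.77, 3.88, 3.55 and 3.73 with IL4. Replicate 1 was the lowest of the IL4 libraries, with 8 reads, and no IL4 library reached a control. The log2 fold change was -1.09 ± 0.24 (SE; limma adjusted p = 0.00576), and -0.72 after centring (adjusted p = 0.0447). Exons of Mrpl19 overlap by 1962 bases with those of Gcfc2 on the opposite strand, whose own log2 fold change in culture was -1.23 ± 0.40 (adjusted p = 0.0319). Since it is not stated whether counting used strand, reads of these genes may be mixed.

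Mrpl3 and Mrps9 complete the 6 falls with the smallest p. Mrpl3, whose protein reaches towards the peptidyl transferase centre, had log2 values of 5.38, 5.76, 5.16 and 5.29 in controls and 4.84, 4.67, 4.73 and 4.59 with IL4. Mrps9, whose bacterial counterpart contacts the transfer RNA in the small subunit, had 2.64, 2.87, 3.03 and 2.93 in controls and 1.35, 1.35, 1.98 and 2.26 with IL4. Neither gene's groups overlapped. Their log2 fold changes were -0.69 ± 0.16 for Mrpl3 (limma adjusted p = 0.00683) and -1.13 ± 0.27 for Mrps9 (limma adjusted p = 0.00833). After centring, neither passed: -0.32 for Mrpl3 (adjusted p = 0.144) and -0.77 for Mrps9 (adjusted p = 0.0562).

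The 9 other members lower in culture were Mrps17, Mrpl11, Mrpl30, Mrps25, Mrpl45, Mrps2, Mrps18a, Mrpl14 and Mrpl47, with log2 fold changes from -0.95 (Mrps18a) to -0.42 (Mrps2). None of these passed after centring. Mrps25, with 36 to 78 reads per library the deepest of them, had log2 values of 5.78, 5.81, 5.47 and 5.55 in controls and 4.93, 4.81, 5.36 and 5.11 with IL4. Its fold change of -0.60 ± 0.16 (SE, limma adjusted p = 0.0132) shares a caveat with Mrpl19. The Mrps25 exons overlap those of Nr2c2 by 4590 bases on the opposite strand, and Nr2c2 changed by -0.66 ± 0.15 (adjusted p = 0.0061).

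Mrpl36, a small zinc-binding protein of the large subunit (chr13:73328513-73332178, plus strand), was the only member higher in culture on the deposited scale. Its log2 values were 1.84, 2.05, 2.13 and 1.57 in controls and 2.79, 2.54, 2.30 and 2.77 with IL4. The groups did not overlap. IL4 against control, the change was 0.70 ± 0.24 (SE; 1.63-fold; limma adjusted p = 0.0379), and 1.06 after centring (adjusted p = 0.00585). Recovered reads were 9 to 14 in controls and 15 to 25 with IL4, and the ratio of their summed rates was 1.67, with an exact 95% interval of 1.15 to 2.46 for counting error only. On the deposited scale the call did not hold when any of 6 of the 8 libraries was left out (control replicate 1, 2 or 4, or IL4 replicate 1, 2 or 4: adjusted p = 0.0542 to 0.0968), nor without both replicate 4 libraries (adjusted p = 0.127). Ndufs6, which starts 29 bases from the GENCODE start of Mrpl36 on the other strand and encodes a subunit of respiratory complex I, changed by -0.12 ± 0.17 (adjusted p = 0.603). The upstream window shown for Mrpl36 (chr13:73330759-73331008) precedes a RefSeq start within this gene span. It therefore does not cover the region shared with Ndufs6.

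Mrpl17, Mrpl44 and Mrps18b passed upwards in culture only after centring, and are named here after their values were seen. Mrpl44 carries a ribonuclease III-like domain. Their log2 fold changes were 0.37, 0.42 and 0.57 as deposited (adjusted p = 0.111, 0.133 and 0.132) and 0.73, 0.78 and 0.93 after centring (adjusted p = 0.0084, 0.0155 and 0.0336). Mrpl17 had log2 values of 3.16, 3.20, 3.03 and 2.94 in controls and 3.34, 3.53, 3.57 and 3.36 with IL4. Its groups did not overlap, with the difference small against the fold changes of the fallen members.

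**Figure D2:**
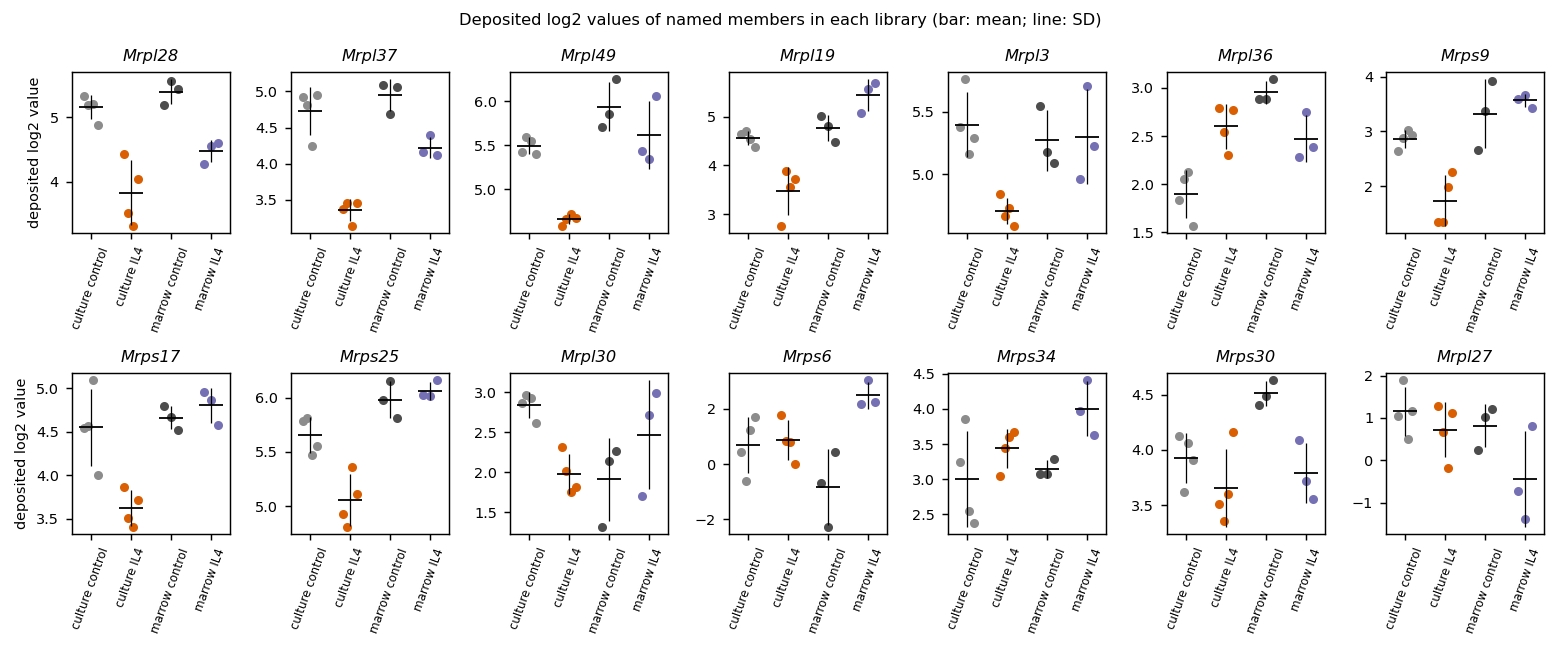
Deposited log2 values (vertical axes, each gene on its own scale) of 14 named members in each library of the 4 groups, with the mean as a bar and the SD as a line (n = 4 per group in culture, 3 in marrow). Mrpl28 and Mrpl37 are lower with IL4 in both experiments, whereas Mrpl36 is higher with IL4 in culture and Mrps6 in marrow.

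In marrow, fewer members moved: Mrps6 and Mrps34 rose, Mrpl28, Mrpl37 and Mrps30 fell, and 71 did not pass. Of all genes 18.2% passed, 6.7% upwards and 11.5% downwards, so the members' share was again below that of all genes. The members' median log2 fold change was 0.02, beside -0.06 for all genes. Groups did not overlap for 11 members, or 7 lower and 4 higher, against 37.6% of all genes. After centring, Mrps6, Mrps34 and Mrpl19 passed upwards and Mrpl28 downwards, with 18.4% of all genes called, 9.45% up and 8.92% down.

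Mrpl28 and Mrpl37 were the 2 members that passed in both experiments. In marrow Mrpl28 had log2 values of 5.19, 5.57 and 5.44 in controls and 4.28, 4.55 and 4.61 in IL4 libraries. The groups did not overlap, and the log2 fold change was -0.92 ± 0.18 (SE; 1.89-fold lower; limma adjusted p = 0.0085), or -0.82 after centring (adjusted p = 0.012). This call was kept under each of the 16 alternatives run in culture and the 13 run in marrow. Recovered reads were 28 to 37 in marrow controls and 13 to 24 in IL4 libraries.

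Mrpl37 in marrow had log2 values of 5.09, 4.69 and 5.06 in controls and 4.16, 4.39 and 4.12 in IL4 libraries. All IL4 libraries were below all controls. The log2 fold change was -0.72 ± 0.19 (SE; 1.65-fold lower; limma adjusted p = 0.0321). It missed the threshold after centring (-0.62, adjusted p = 0.0578), after quantile normalization (adjusted p = 0.0553) and without control replicate 1 or 3 or IL4 replicate 1 or 3 (adjusted p = 0.0722 to 0.109). In culture its fall held under all 16 alternatives run.

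Mrps6, a small-subunit protein of bacterial type that sits on the platform of that subunit (chr16:92058270-92112227, plus strand), had the largest rise in marrow, on few reads. Marrow controls had 1, 0 and 3 reads and marrow IL4 libraries 9, 16 and 14. The log2 values were -0.67, -2.26 and 0.45 in controls and 2.17, 3.03 and 2.24 with IL4, without overlap. The rise amounted to 3.31 ± 0.66 (SE; 9.91-fold; limma adjusted p = 0.00851), and the ratio of read rates was 9.96 with an exact 95% interval of 3.59 to 38.4 for counting error only. In culture the 8 libraries had 1 to 10 reads, and the log2 fold change was 0.18 ± 0.55 (adjusted p = 0.818).

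The Mrps6 locus is shared with Slc5a3, the gene of a myo-inositol transporter, which starts 52 bases away on the same strand and shares 159 exonic bases with it. Slc5a3, named here after its values were seen, had 1, 1 and 5 reads in marrow controls and 5, 27 and 17 in marrow IL4 libraries. Its log2 fold change in marrow was 2.64 ± 0.65 (SE, limma adjusted p = 0.023), and in culture 0.30 ± 0.63 (adjusted p = 0.723). How reads of the shared first exon were assigned is not given in the sources used here, so the counts of both genes are uncertain.

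Mrps34, a small-subunit protein specific to mitochondria whose human gene is mutated in a form of Leigh syndrome (chr17:24895116-24897502, plus strand), had log2 values of 3.08, 3.07 and 3.29 in marrow controls and 3.97, 4.41 and 3.63 with IL4. The groups did not overlap. The log2 fold change was 0.86 ± 0.26 (SE; 1.81-fold; limma adjusted p = 0.0481), close to the threshold, and 5 of 13 alternatives kept the call. It did not hold without any of 5 of the 6 libraries (all but IL4 replicate 3: adjusted p = 0.0878 to 0.13). Its exons overlap those of Nme3 by 763 bases on the same strand, and Nme3 moved the other way (-1.65 ± 0.41, limma adjusted p = 0.0245). They also overlap those of Mapk8ip3 by 1309 bases on the opposite strand, and Mapk8ip3 had -0.40 ± 0.28 in marrow (limma adjusted p = 0.373). Reads of these genes may be mixed.

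Mrps30 (chr13:118378381-118387252, minus strand) encodes a large-subunit protein specific to mitochondria. Its log2 values were 4.41, 4.49 and 4.63 in marrow controls and 4.09, 3.72 and 3.56 with IL4, without overlap. The change in log2 was -0.72 ± 0.21 (SE, limma adjusted p = 0.0465), and 4 of 13 alternatives kept the call. It did not hold after centring (adjusted p = 0.0863) or without any of 5 of the 6 libraries (all but IL4 replicate 1: adjusted p = 0.0869 to 0.144). The lowest log2 fold change in marrow was that of Mrpl27, whose bacterial counterpart lies at the peptidyl transferase centre. It had 5, 9 and 11 reads in controls and 2, 1 and 10 with IL4, and -1.25 ± 0.64 did not pass (limma adjusted p = 0.209).

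**Figure D3:**
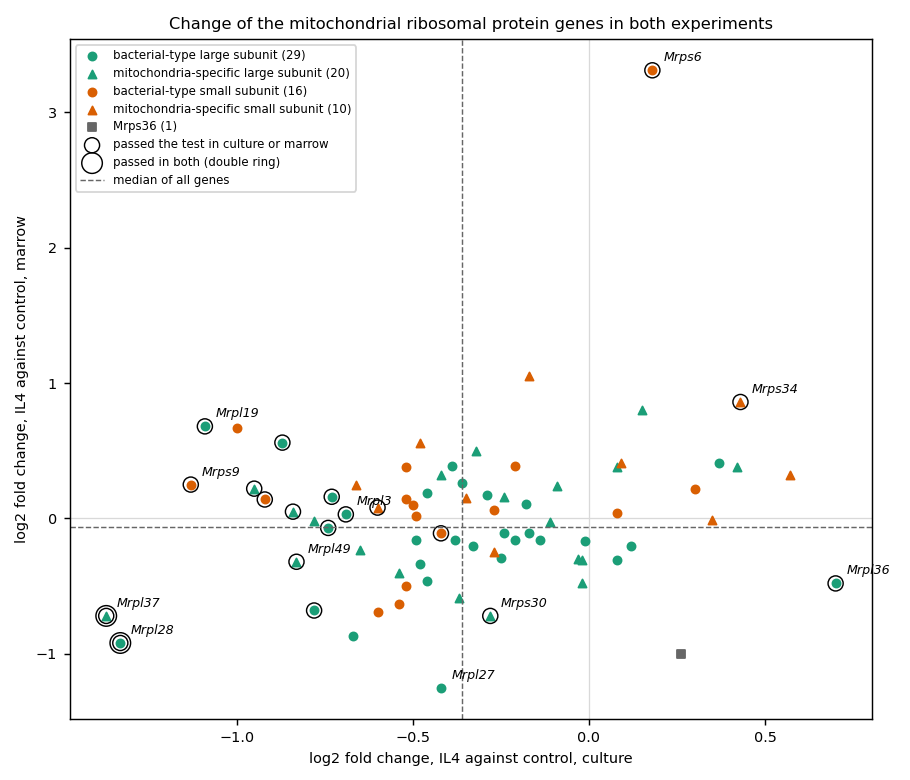
Log2 fold change (IL4 against control) of each of the 76 members in culture (horizontal axis) and marrow (vertical axis), coloured by subunit and shaped by type, with rings on members that passed the test and dashed lines at the medians of all genes (-0.36 and -0.06). Mrpl28 and Mrpl37 stand at the lower left with 2 rings, Mrpl36 at the right, and Mrps6 at the top.

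The 2 experiments share no libraries. Across the 76 members, the log2 fold changes of culture and marrow had a Spearman rho of 0.15 and a Pearson r of 0.20, beside 0.20 and 0.29 across all genes. These describe genes measured in the same libraries, not replicates. The difference of the IL4 responses, culture minus marrow, was tested in a limma fit over all 14 libraries. It passed upwards for 1 member and downwards for 6, against 23.1% of all genes (6.45% up, 16.6% down). After centring it passed for Mrpl36 and Mrps36 upwards and Mrpl19 and Mrps6 downwards, against 18.9% of all genes (9.38% up, 9.5% down).

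Mrpl19 had the clearest opposite movement. Its marrow log2 values were 5.01, 4.80 and 4.48 in controls and 5.08, 5.57 and 5.68 with IL4. Every marrow IL4 library was above every marrow control, whereas in culture all were below. The marrow fold change was 0.68 ± 0.22 (SE, limma adjusted p = 0.0576) and passed after centring (0.79, adjusted p = 0.031). The difference between the experiments was -1.77 ± 0.35 (SE, limma adjusted p = 0.00242), and -1.51 after centring (adjusted p = 0.00688). Gcfc2, on the opposite strand, changed by -0.26 ± 0.38 in marrow (adjusted p = 0.686).

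Mrpl36 had the reverse order. Its marrow log2 values were 2.89, 2.88 and 3.09 in controls and 2.28, 2.75 and 2.39 with IL4. The marrow groups did not overlap, but -0.48 ± 0.27 did not pass (limma adjusted p = 0.255). The difference of its responses was 1.18 ± 0.33 (SE, limma adjusted p = 0.0182), and 1.44 after centring (adjusted p = 0.00503).

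Mrps6 differed by -3.13 ± 0.92 (SE, limma adjusted p = 0.0242), a call that was lost without both culture replicate 4 libraries (adjusted p = 0.0591) and with quantile normalization (adjusted p = 0.0759). Mrps17, whose bacterial counterpart binds ribosomal RNA early in assembly, differed by -1.07 ± 0.31 (adjusted p = 0.0247). Its reads were 17 to 33 in controls and 11 to 18 with IL4 in culture, 24 to 27 in marrow controls and 24 to 30 in marrow IL4 libraries, so the marrow groups overlapped. Mrps9 differed by -1.38 ± 0.43 (adjusted p = 0.0304), Mrps25 by -0.68 ± 0.22 (adjusted p = 0.0351) and Mrpl30 by -1.43 ± 0.46 (adjusted p = 0.0362). For these 4 genes the fall in culture passed and the marrow values were 0.08 to 0.56, none past the threshold. After centring, none of the 4 differences passed (adjusted p = 0.0742 to 0.186). Mrps36, which passed only after centring (1.51, adjusted p = 0.0285), had 5 to 17 reads per culture library, 10 to 14 in marrow controls and 3 to 7 with IL4 in marrow.

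**Figure D4:**
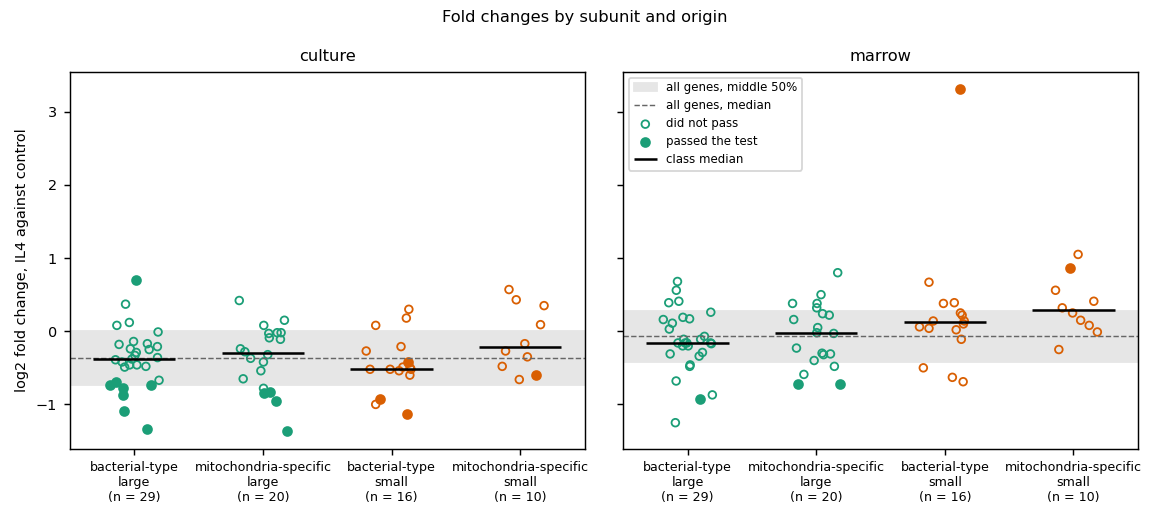
Log2 fold change (vertical axis) of members by subunit and type in culture (left) and marrow (right), with filled points for members past the test, a bar at each class median, and the median and middle 50% of all genes behind. In marrow the small-subunit classes have medians of 0.12 and 0.29 and the large-subunit classes -0.16 and -0.03.

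By subunit, in culture 11 of 49 large-subunit members passed downwards and 1 upwards, with a median of -0.36, and 4 of 26 small-subunit members passed downwards, with a median of -0.45. Of all genes 32.6% passed downwards there and 7.96% upwards, so both subunits had smaller shares of falls than all genes. Members of bacterial type had 7 falls and 1 rise of 29 in the large subunit and 3 falls of 16 in the small subunit. Members specific to mitochondria had 4 falls of 20 and 1 of 10. In marrow, where 11.5% of all genes fell and 6.7% rose, all 3 falls were in the large subunit and both rises in the small subunit. The calls of Mrpl37, Mrps30 and Mrps34 among them were kept under 6, 4 and 5 of 13 alternatives. The median was -0.16 over the 49 large-subunit members, of which 21 lay above the all-gene median, and 0.15 over the 26 small-subunit members, of which 21 did. These classes were described and not tested against each other, and summed reads of the small subunit overlapped between the marrow groups: 772 to 896 CPM in controls and 861 to 983 with IL4.

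Summed over all 76 members, the CPM was 2050 to 2460 in controls and 1750 to 1980 with IL4 in culture, which did not overlap. The nearest libraries of the 2 groups were both replicate 4, at 2050 and 1980. CPM is relative to each library's total, and the median log2 fold change of all genes in culture was -0.36. In marrow the sums were 2540 to 2820 in controls and 2320 to 2920 with IL4, and overlapped. The cytosolic ribosome makes the imported proteins. Of its 58 measured protein genes, 13 rose in marrow (22.4%, against 6.7% of all genes), 0 fell (against 11.5%) and 45 did not pass, with a median of 0.38 and 52 above the all-gene median, and the sums of the 54 with recovered reads were 10500 to 11300 CPM in controls and 13500 to 15400 with IL4. After centring, 20 of the 58 rose there (34.5%, against 9.45% of all genes). In culture 11 of the 58 fell (against 32.6% of all genes) and 47 did not pass, with a median of -0.34 beside the members' -0.36, and after centring Rpl41, named after its values were seen, was the 1 that passed, upwards, with a median of 0.03. Of 77 respiratory chain and ATP synthase genes, 4 rose and 6 fell in culture (5.19% and 7.79%, against 7.96% and 32.6% of all genes), with a median of -0.13, and 3 rose and 5 fell in marrow (3.9% and 6.49%, against 6.7% and 11.5%), with a median of -0.11. After centring, 15 of the 77 rose and 2 fell in culture (19.5% and 2.6%, against 14.4% and 12.7% of all genes), with a median of 0.24, where the members' median was 0.00, and 3 rose and 3 fell in marrow (3.9% each, against 9.45% and 8.92%). Differences between these lists and the members were not tested.

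**Figure D5:**
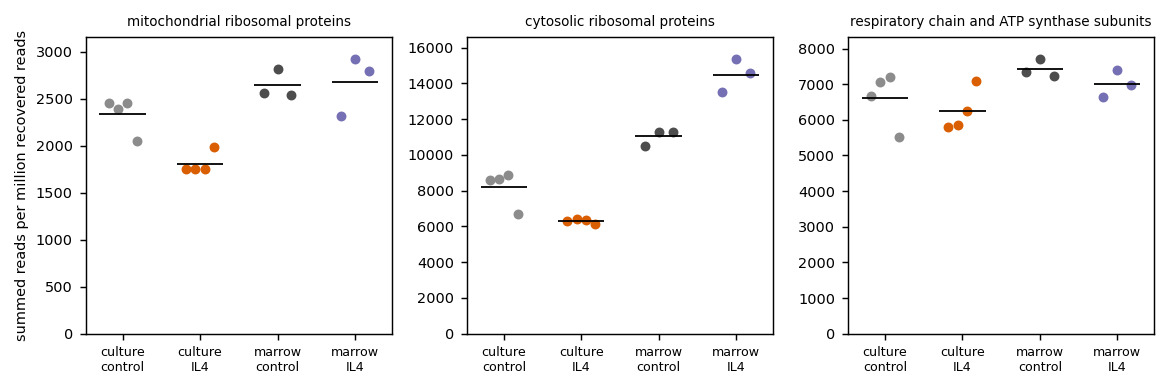
Summed CPM (vertical axes, reads per 1000000 recovered reads, from 0) of the 76 mitochondrial ribosomal protein genes, of cytosolic ribosomal protein genes and of respiratory chain and ATP synthase genes in each library, with group means as bars. The mitochondrial sums are lower with IL4 in culture (1750 to 1980 against 2050 to 2460) and overlap in marrow, whereas the cytosolic sums are higher with IL4 in marrow. CPM is relative to each library's total, and all genes had a median log2 fold change of -0.36 in culture.

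Genes that work with the mitochondrial ribosome were taken from lists. For this and the following paragraphs, the shares of all genes were 32.6% down and 7.96% up in culture. In marrow they were 11.5% down and 6.7% up. Of the list genes that passed downwards in culture, Nsun4 and Polg also did so after centring, whereas the others did not. Of 6 mitoribosomal proteins with other symbols, Gadd45gip1 fell in marrow (-0.89 ± 0.25, limma adjusted p = 0.0402, and 0.0547 after centring), and the other 5 passed in neither experiment. Dap3, a GTP-binding protein of the small subunit, had -0.49 ± 0.20 in culture (adjusted p = 0.0761) and -0.14 ± 0.28 in marrow (adjusted p = 0.782). Of 12 translation factors, Oxa1l, which inserts new proteins into the inner membrane, fell in culture (-0.68 ± 0.19, adjusted p = 0.0182), and the other 11 passed in neither experiment.

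Of 21 genes for mitoribosome assembly and ribosomal RNA modification, 4 fell in culture, a smaller share than the 32.6% of all genes. Among them were Nsun4, an RNA methyltransferase (-1.35 ± 0.32, limma adjusted p = 0.00794), and Rbfa, a small-subunit assembly factor (-0.84 ± 0.18, adjusted p = 0.00495). In marrow 1 rose, the helicase gene Ddx28 (1.31 ± 0.28, adjusted p = 0.0125). Of 16 mitochondrial aminoacyl-tRNA synthetases, Lars2 rose in both experiments (0.66 ± 0.18 in culture, adjusted p = 0.0171, and 1.20 ± 0.14 in marrow, adjusted p = 0.000665), while Hars2, Aars2 and Tars2 fell in culture (against 32.6% of all genes). Whole reads could not be solved from the deposited values of Lars2, so its read numbers are not known.

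Of 13 genes for mitochondrial DNA and RNA synthesis, Polg, the catalytic subunit of the mitochondrial DNA polymerase, fell in culture (-1.31 ± 0.17, limma adjusted p = 0.0003) and in marrow (-0.64 ± 0.16, adjusted p = 0.0246). The other 12 did not pass in either, whereas 32.6% of all genes fell in culture and 11.5% in marrow. Tfam, which packages mitochondrial DNA, had -0.44 ± 0.31 in culture and -0.21 ± 0.32 in marrow. Polrmt, the mitochondrial RNA polymerase, had -0.76 ± 0.29 and 0.11 ± 0.26, and Lrpprc, which stabilises mitochondrial messenger RNA, had -0.39 ± 0.19 and -0.07 ± 0.19. None of these passed (adjusted p = 0.063 to 0.846).

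Of 7 regulators of mitochondrial biogenesis, Myc rose in both experiments: 1.05 ± 0.24 in culture (limma adjusted p = 0.00641) and 1.17 ± 0.24 in marrow (adjusted p = 0.0093). Its reads were 12 to 22 in controls and 26 to 46 with IL4 in culture, and 21 to 41 in controls and 60 to 91 with IL4 in marrow. Nrf1 (-0.61 ± 0.21, adjusted p = 0.0411) and Gabpb1, a subunit of GABP (-0.78 ± 0.28, adjusted p = 0.0458), fell in culture. Neither passed after centring, where Nrf1 had -0.25 (adjusted p = 0.446) and Gabpb1 -0.41 (adjusted p = 0.313).

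Many members share a promoter region with another gene. In GENCODE M21, 33 of the 76 had a protein-coding neighbour on the other strand whose start lay within 1000 bases, and 27 of these neighbours were measured, among them Twnk, listed under its older symbol Peo1. In culture 5 of these 27 members and 8 of the neighbours passed, against 40.5% of all genes, and in marrow 1 and 3, against 18.2%. Pairs in which both passed numbered 0 in each experiment. Exons of 32 members overlap those of some other gene, and of 20 those of a measured gene, where assignment of reads could affect the values. Mrpl28 had no such head-to-head or overlapping neighbour.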

How the data were processed

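RNA of 14 libraries was purified with RNeasy Micro columns and sequenced from TruSeq RNA v2 libraries, per the labels' protocols. The submitters' processing notes name TopHat2 2.0.13, bcl2fastq and the build mm10. Not given in the sources used here are the counting tool, its use of strand, the gene filter and the normalization. The library values the authors deposited are on a log2 scale. They equal the log2 of whole reads plus 0.5, plus a constant per gene and per library, solved for 9422 of 9474 genes (largest residual 0.000725 where reads were under 100). The library constants offset the log2 of the recovered totals to within -0.014 to 0.017. The authors' deposited p-value, q-value and fold (ratio) columns were not used. Unused columns of per-sample values numbered 0.

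limma 3.58.1 (R 4.3.3) was applied to the deposited log2 values of each table with a variance trend and without covariates (6 residual degrees of freedom in culture, 4 in marrow). Tests were two-sided, with Benjamini-Hochberg adjustment over 9474 genes and a threshold of 0.05. The difference of responses was a contrast over all 14 libraries. The scripts were tested on simulated data. The members and lists were chosen with earlier results of these data known. Members named are the up to 6 rises and 6 falls with the smallest adjusted p per comparison, those called in both or in the difference, and the extremes. For other lists at most 3 called genes were named, plus Tfam, Polrmt, Lrpprc, Dap3 and Myc. The lists covered mitoribosomal proteins under other symbols, translation factors, assembly, DNA and RNA synthesis, synthetases, regulators, cytosolic ribosomal and respiratory chain proteins, and markers of macrophages, neutrophils, eosinophils, monocytes, B, T and NK, erythroid and progenitor cells and cell division. Alternatives were other scalings, no trend, a low-read filter, a replicate block, another pseudocount, voom and left-out libraries. Replicate pairs had a chi-square per degree of freedom of 1.36 to 5.88, more than sampling noise, and all libraries were kept as separate replicates.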

Additional observations from a re-analysis of the deposited data

Results flagged for a closer look

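The IL4 responses of 7 members differed between culture and marrow by the test of the difference itself (limma, culture minus marrow, adjusted over all genes). The log2 differences were 1.18 for Mrpl36, -1.77 for Mrpl19, -3.13 for Mrps6, -1.07 for Mrps17, -1.38 for Mrps9, -0.68 for Mrps25 and -1.43 for Mrpl30. Mrpl36, Mrpl19 and Mrps6 also passed after centring. In Mrps6 the difference was not called without both culture replicate 4 libraries (adjusted p = 0.0591) or with quantile normalization (adjusted p = 0.0759), and it rests on marrow controls with 1, 0 and 3 reads. The cell mixture and the AML hosts are tied to the experiment and cannot be told apart from it.

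The share of recovered reads taken by all members was flagged as apart from the other libraries of its group in both replicate 4 libraries of culture. It was 0.205% in control replicate 4, the lowest control, and 0.198% in IL4 replicate 4, the highest IL4 library. Chance flags about 1 in 20 groups, and 30 such checks were run. These are also the libraries that stood apart in cell division genes. The part of cell division in the shares was not tested.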

How the results depend on the processing

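Two-sided limma calls of members depended on the scaling between libraries and on single libraries. In culture, 4 rose and 4 fell after library median centring and 4 rose and 5 fell after quantile normalization, with medians of 0.00 and 0.09, where the deposited scale gave 1 rise, 15 falls and -0.36. Leaving out both replicate 4 libraries, an alternative chosen after seeing the data, gave 0 rises and 20 falls. Leaving out 1 library at a time gave 0 to 1 rises, 12 to 18 falls and medians of -0.42 to -0.33.

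In marrow, falls went from 3 to 1 after centring and 1 after quantile normalization. Rises went from 2 to 1 without the variance trend and to 4 with log2(reads + 2). Leaving out 1 library gave 1 to 2 rises, 1 to 4 falls, medians of -0.06 to 0.10 and 1104 to 1460 called genes of 1721. The difference was called up for 2 members and down for 2 after centring, up for 2 and down for 1 after quantile normalization, and down for 10 without both replicate 4 libraries. The cause was not tested.

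With the replicate number as a block, 0 members rose and 18 fell in culture, and 2 rose and 2 fell in marrow. The calls of Mrpl36 in culture (adjusted p = 0.0888) and of Mrpl37, Mrps30 and Mrps34 in marrow (0.0539, 0.0715 and 0.0692) were lost, and Mrpl43 (up) and Mrps36 (down) were gained in marrow. The numbers did not pair the libraries: deviations of same-numbered libraries had r of -0.045 to 0.022 in culture and 0.026 to 0.059 in marrow, where each of the 3 controls nevertheless correlated best with its own number, a hint from the data and not from the design.

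Of 456 values of the 14 named members, 388 kept direction and side, 52 lost and 6 gained significance, and 10 changed sign, none of these being called as reported. They were, in culture, Mrpl27 with quantile normalization (0.22), Mrps30 with centring (0.09) and quantile normalization (0.11), and Mrps6 without control replicate 2 (-0.25) or IL4 replicate 1 (-0.13), with 0.51 as its highest value without a library. In marrow they were Mrpl3 without control replicate 2 (-0.02), control replicate 3 (-0.07) or IL4 replicate 2 (-0.18; highest 0.20), Mrps25 without control replicate 3 (0.00; highest 0.16) and Mrps9 without control replicate 1 (-0.08; highest 0.55). The planned edgeR and DESeq2 fits were not run, because the deposited unit is log2, and voom took their place. The median member had 17.5 reads per library.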
